A study of Mus musculus with 6 samples.

Results

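The C/EBP genes Cebpa, Cebpb, Cebpd, Cebpe and Cebpg, together with Spi1, which encodes PU.1, and Gfi1, were followed in mouse leukaemia cells. These 7 genes were chosen by symbol, and all 7 have a row among the 53819 genes of the deposited count table and passed the filter on low counts that left 15232 genes for testing. The cells came from the spleens of mice transplanted with primary leukaemia cells that carry BCR-ABL and NUP98-HOXA9, a pair of fusion genes that together give a mouse model of blast-crisis chronic myeloid leukaemia, and both groups share these fusions. The groups were 3 libraries labelled SLC6A6 KO (KO1 to KO3) and 3 labelled SLC6A6 WT (WT1 to WT3), with values always given in the order of their numbers, although the submitters' title says knock-down. The taurine transporter is the product of Slc6a6, and the design asks what its loss changes in these cells. The labels give no allele, sorting marker, strain, age or time, and do not tell whether the 3 libraries of each group stem from different mice, so every p-value below reflects spread among these libraries alone, and that spread may be technical.

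C/EBP proteins are basic leucine zipper transcription factors that bind DNA as dimers with one another, and in blood they drive the choice of granulocyte and monocyte fates. C/EBPα commits progenitors to the myeloid line, C/EBPβ serves macrophages and the granulocyte output of stressed marrow, C/EBPε acts in the late steps of granule formation, and C/EBPγ mainly pairs with other members. PU.1 works beside them at many myeloid genes, and GFI1 is a repressor that favours neutrophils over monocytes. In chronic myeloid leukaemia, BCR-ABL is known to lower C/EBPα by blocking the translation of its mRNA.

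Library totals ran from 42829294 to 49537098 counts, and 3 counts corresponded to 0.0594 to 0.0727 CPM (counts relative to library size, scaled by TMM). Slc6a6 itself stood at 125, 132 and 133 CPM in the KO libraries and at 151, 145 and 145 CPM in the WT libraries, a difference that did not pass the test (adjusted p = 0.196, edgeR), and counts per gene do not check the genotype. Kdm5d, Uty, Ddx3y and Eif2s3y, 4 genes on the Y chromosome, together had 10274 to 11236 counts per KO library and 0 to 1 per WT library, and Xist had 14 to 196 counts per KO library and 7239 to 9961 per WT library. The genotype labels and this difference in sex-linked transcripts therefore cannot be told apart in any difference below. All 10 markers of leukaemic progenitors were measured, with a summed level of 2002 to 2229 CPM in KO and 1801 to 1895 CPM in WT. Most of that sum came from 2 genes, Cd47 at 1074 ± 63.3 CPM in KO and 847 ± 49.3 in WT, and Cd48 at 450 ± 114 and 457 ± 33.9 CPM. The sum therefore says little about the other markers. The 8 stromal and endothelial markers summed to 132 to 193 CPM in KO and 117 to 253 CPM in WT, most of it from Col1a2, with Pecam1 at 4.24 to 20.05 CPM, while Col3a1, Cdh5 and Dcn had no count in any library.

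Cebpb was the factor that passed the test between the groups, about 4 times lower in the libraries labelled KO. It was measured at 19.7, 11.8 and 18.1 CPM in the KO libraries, and at 77.3, 67.7 and 54.6 CPM in the WT libraries. Each WT library therefore stood far above each KO library, with no overlap. Group means were 16.5 ± 4.19 CPM in KO and 66.5 ± 11.4 CPM in WT (SD, n = 3 each), a fall of 75.1% in the fit (log2 fold change −2.01 ± 0.23, SE, 95% interval −2.54 to −1.47, edgeR adjusted p = 0.0125). Cebpb was 1 of 7 factors called lower, where 1.92% of all tested genes were called lower. It passed the test in each of the 6 fits that left out 1 library, with log2 fold changes between −2.15 and −1.82 and adjusted p-values up to 0.0486.

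The 250 bases before the RefSeq start sites of Cebpb, Cebpg and Cebpa (build GRCm38.p6) are shown because these genes differ most in behaviour: Cebpb changed, Cebpg held the steadiest level, and Cebpa, which lies next to Cebpg on the chromosome, was barely expressed. Sequences run 5′ to 3′ on the gene's strand. Capitals mark the cyclic AMP response core TGACG, the CCAAT box, the TATA box TATAAA and the C/EBP motif TTGCNNAA. Each was searched on both strands.
Cebpb, chr2:167688665-167688914, plus strand: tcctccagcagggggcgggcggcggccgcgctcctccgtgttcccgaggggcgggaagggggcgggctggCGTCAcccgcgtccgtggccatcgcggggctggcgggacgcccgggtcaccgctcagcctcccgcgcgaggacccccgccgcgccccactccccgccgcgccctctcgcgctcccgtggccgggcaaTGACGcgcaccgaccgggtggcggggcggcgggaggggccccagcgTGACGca
Cebpg, chr7:35056567-35056816, minus strand: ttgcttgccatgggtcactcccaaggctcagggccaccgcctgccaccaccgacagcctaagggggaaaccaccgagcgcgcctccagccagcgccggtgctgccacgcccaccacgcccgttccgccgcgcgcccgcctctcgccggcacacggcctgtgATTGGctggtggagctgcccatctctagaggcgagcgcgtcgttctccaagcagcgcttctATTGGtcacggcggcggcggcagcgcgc
Cebpa, chr7:35119043-35119292, plus strand: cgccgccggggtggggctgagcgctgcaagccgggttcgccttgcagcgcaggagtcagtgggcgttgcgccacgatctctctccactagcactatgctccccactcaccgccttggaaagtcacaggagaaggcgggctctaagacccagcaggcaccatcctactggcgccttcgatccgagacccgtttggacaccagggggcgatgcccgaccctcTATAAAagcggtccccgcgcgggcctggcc
The Cebpb window held TGACG 53 and 7 bases before the start and, on the opposite strand, 180 bases before it. TGACG is the core read by CREB and ATF proteins, and 17.8% of 32851 RefSeq promoter windows of the same length hold at least 1. In the Cebpg window CCAAT occurred on the opposite strand 89 and 28 bases before the start, a box found in 33.8% of windows. The Cebpa window held TATAAA 30 bases before the start, a motif that 12.4% of windows hold at any position. No TTGCNNAA was found in these 3 windows, against 9.56% of all windows with a match, and these matches describe letters and not binding. The window before 1 of the 2 RefSeq starts of Gfi1, not printed, held a match to TTGCNNAA 143 bases before the start.

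**Figure D1:**
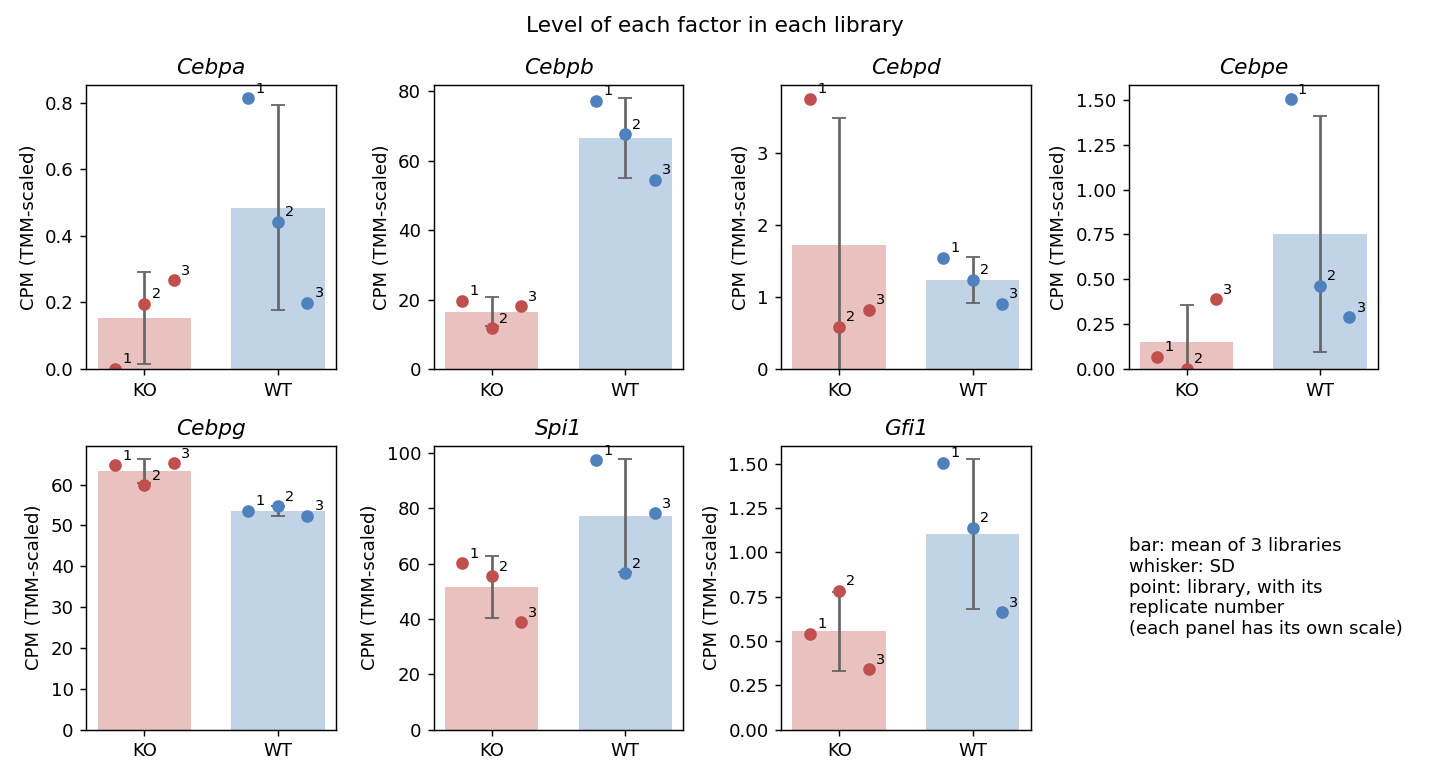
CPM of each of the 7 factors (vertical axis, a separate scale for each panel, starting at 0) in the KO and WT libraries; points are libraries with their replicate number, bars are means of 3 and whiskers the SD. Cebpb lies between 11.8 and 19.7 CPM in KO and between 54.6 and 77.3 CPM in WT, while Cebpa, Cebpe and Gfi1 stay below 2 CPM in every library.

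Cebpg, the dimer partner of the other C/EBP proteins, was the steadiest of the 7. Its level was 64.8, 59.9 and 65.2 CPM in the KO libraries and 53.6, 54.7 and 52.4 CPM in the WT libraries. All KO libraries lay above all WT libraries, as they did for 13.6% of tested genes, but the difference was small, with a log2 fold change of 0.24 ± 0.09 (95% interval 0.04 to 0.44), and did not pass the test (adjusted p = 0.163, edgeR). Of the 7 factors 0 were called higher by edgeR, against 1.64% of all tested genes, with 1 at an unadjusted p under 0.05 and 0 by DESeq2 or limma-voom.

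Cebpa, the factor that commits progenitors to the myeloid line, was close to the limit of detection in both groups. It had 0, 9 and 11 counts in the KO libraries, and 41, 21 and 9 counts in the WT libraries. KO3 exceeded WT3 and KO2 equalled it, so the groups overlapped, and the library with no count allows a level of up to 0.0675 CPM. The log2 fold change of −1.64 ± 1.10 had a 95% interval from −4.23 to 0.94 (adjusted p = 0.438, edgeR), which holds both a large fall and a rise.

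Cebpe, the factor of late granule formation, was also scarce and more uneven. Its counts were 3, 0 and 16 in the KO libraries, and 76, 22 and 13 in the WT libraries. WT1 held most of the WT counts, and KO3 exceeded WT3. The log2 fold change was −2.31 ± 1.26 (interval −5.28 to 0.66, adjusted p = 0.340, edgeR) with all libraries and −1.33 without WT1. Summed over 10 neutrophil markers, Ngp and Camp among them, the same library WT1 had 744 CPM. WT2 and WT3 had 139 and 105 CPM, and the KO libraries 14.8 to 216 CPM. The part of these markers in the Cebpe values was not tested. In such bulk libraries fewer cells of a type and less RNA per cell cannot be told apart.

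Cebpd, a factor induced by inflammatory cytokines, was set apart by a single library. It stood at 3.76 CPM in KO1, at 0.588 and 0.824 CPM in KO2 and KO3, and at 1.55, 1.24 and 0.906 CPM in the WT libraries. KO1 was the highest of all libraries and the other KO libraries were the lowest, so the direction turned with KO1: the log2 fold change was 0.48 ± 0.73 with it (adjusted p = 0.757, edgeR) and −0.80 without it. The genes with the most similar pattern, by the root mean square difference of centred log2 CPM over the 6 libraries, were Usp18, Irf7 and Dhx58 at 0.24, 0.24 and 0.29, where the Cebpd pattern itself had a size of 0.82. Usp18, Irf7 and Dhx58 are known as interferon-stimulated genes, and Irf7 stood at 236 CPM in KO1 against 39.5 to 114 CPM in the other 5 libraries.

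Spi1, the gene of PU.1, was expressed in every library. It had 60.1, 55.6 and 38.9 CPM in the KO libraries, and 97.4, 56.5 and 78.3 CPM in the WT libraries. KO1 exceeded WT2, so the groups overlapped. The fitted difference was −0.59 ± 0.24 on the log2 scale (interval −1.14 to −0.03, adjusted p = 0.206, edgeR), or 33.4% lower. The 11 measured erythroid markers summed to 7774 to 27290 CPM in KO and to 2508 to 10839 CPM in WT, and with their mean log2 CPM as a covariate the Spi1 difference was −0.19 (adjusted p = 0.762). Rogdi and Dusp5 had the patterns nearest to Spi1 over the 6 libraries, with differences of 0.064 and 0.093 against a size of 0.41 for Spi1 itself.

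Gfi1 was low throughout, with 0.540, 0.784 and 0.339 CPM in the KO libraries and 1.51, 1.14 and 0.663 CPM in the WT libraries. KO2 stood above WT3. The log2 fold change was −0.99 ± 0.53 (interval −2.23 to 0.26, adjusted p = 0.331, edgeR), and −0.49 with the erythroid covariate. Its paralogue Gfi1b, a repressor of erythroid and megakaryocyte cells, was far more abundant: per kilobase of exon, Gfi1 reached 0.000932 to 0.00273 of the Gfi1b level in KO and 0.00234 to 0.00523 in WT.

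**Figure D2:**
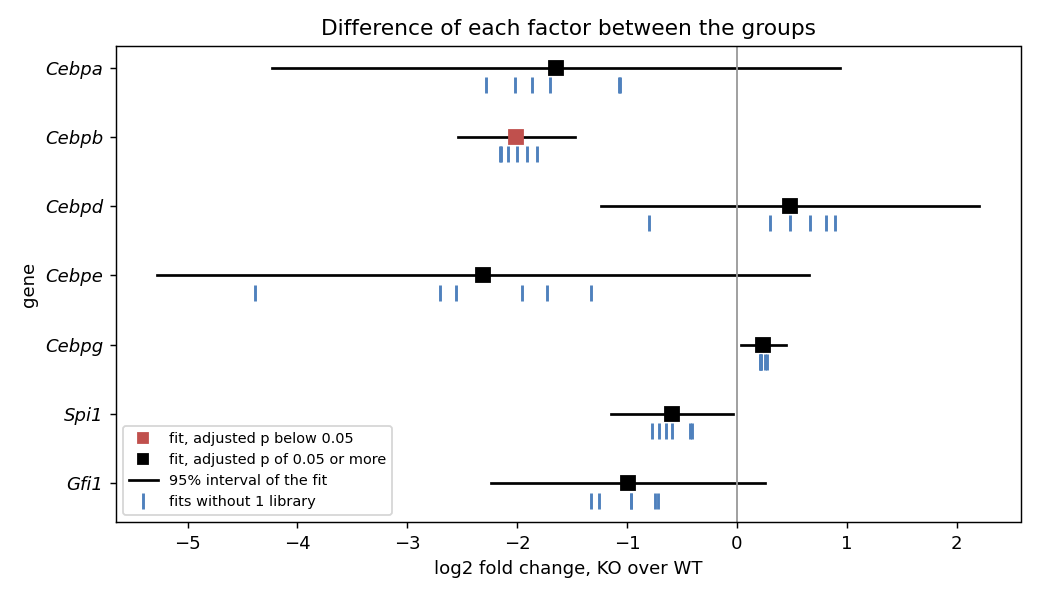
Log2 fold change, KO over WT (horizontal axis), of each factor (vertical axis); squares are the fit on 6 libraries, lines its 95% interval, and blue ticks the fits without 1 library. Cebpb at −2.01 is the factor past the threshold, its ticks span −2.15 to −1.82, and the ticks of Cebpd fall on both sides of 0.

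Levels of different genes were compared per kilobase of exon, with lengths from GENCODE M21. In WT the order by mean was Cebpb at 44.2 ± 7.60, Spi1 at 28.7 ± 7.58, Cebpg at 9.53 ± 0.21, Cebpe at 0.606 ± 0.531, Gfi1 at 0.346 ± 0.133, Cebpd at 0.329 ± 0.085 and Cebpa at 0.184 ± 0.117 CPM per kilobase (SD, n = 3). In that order the last 4 lie within each other's spread, and so do Cebpb and Spi1 when the longest transcript is used as the length, which puts Spi1 at 38.0 CPM per kilobase and Cebpg at 11.4. In KO the order began with Spi1 at 19.1 ± 4.15, Cebpg at 11.3 ± 0.52 and Cebpb at 11.003 ± 2.78 CPM per kilobase, and Cebpb and Cebpg did not differ beyond their spread. Cebpd at 0.460 ± 0.471, Gfi1 at 0.174 ± 0.070, Cebpe at 0.122 ± 0.167 and Cebpa at 0.0585 ± 0.0524 followed, again within each other's spread. Among tested genes, Cebpb stood at the 89.7th percentile of levels per length in WT and at the 67.3rd in KO.

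The make-up of the C/EBP family, taken from these levels, was not the same in the groups. Cebpb provided 81.8%, 80.9% and 78.6% of the summed C/EBP level per kilobase in the WT libraries, and 51.0%, 41.9% and 49.7% in the KO libraries. Cebpg made up most of the rest, with 15.2%, 17.5% and 20.2% in the WT libraries and 44.9%, 56.9% and 47.7% in the KO libraries. The ratio of Cebpb to Cebpg per kilobase was 5.40, 4.62 and 3.90 in the WT libraries, and 1.14, 0.736 and 1.04 in the KO libraries. The order of this pair in KO depends on the length. By the longest transcript Cebpb had 13.1, 7.85 and 12.1 CPM per kilobase in the KO libraries, each below Cebpg at 13.8, 12.7 and 13.8. In each WT library Cebpb stood above Spi1 per kilobase of exon, and in each KO library below it. With the longest transcript as length this held in all libraries except WT3, where Spi1 had 38.5 and Cebpb 36.3 CPM per kilobase.

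**Figure D3:**
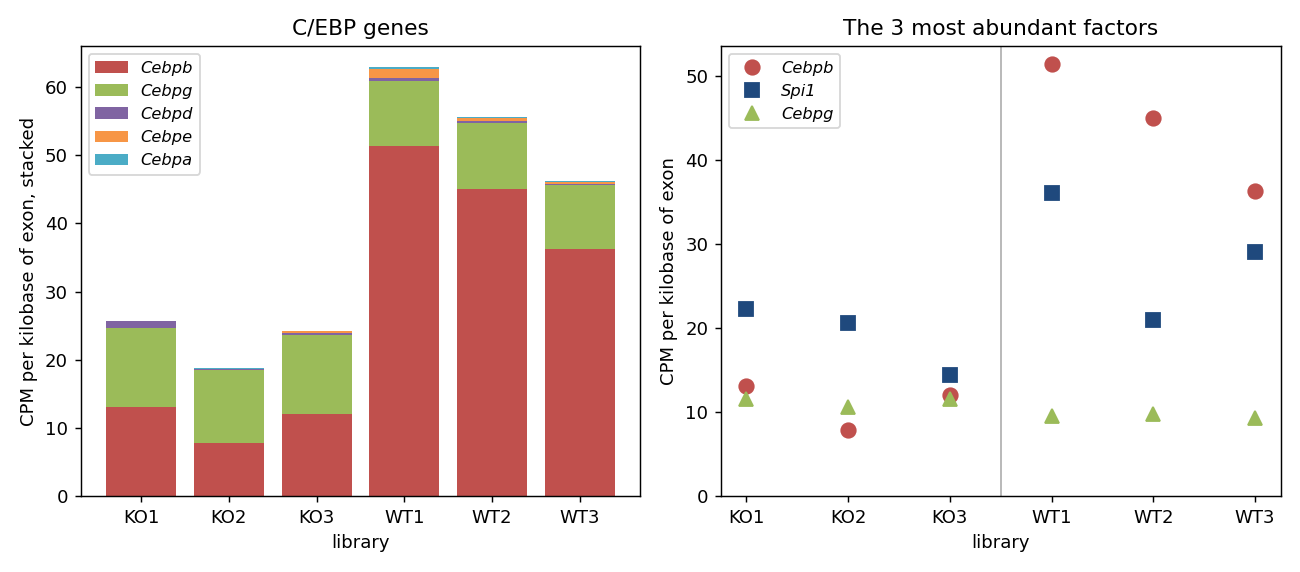
Left, CPM per kilobase of exon of the 5 C/EBP genes stacked for each library; right, the same unit for Cebpb, Spi1 and Cebpg in each library. Cebpb takes 78.6% to 81.8% of the stack in WT and 41.9% to 51.0% in KO, and its points lie above those of Spi1 in WT and below them in KO.

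The factors also differ in the structure of their transcripts. Cebpa, Cebpb and Cebpd have 1 exon, and Cebpb has the highest GC content of the 7 at 67.2% of its longest transcript, above 99.8% of tested genes. Cebpa at 62.6% and Cebpe at 61.5% are also GC-rich, whereas Cebpg at 43.3% lies below the median of 49.2%. The libraries do not mark strand, and 312 of the 1504 exon bases of Cebpb are shared with Tmem189 on the opposite strand, as are 562 of 3746 of Cebpd with Spidr, so reads from such stretches cannot be told apart. Tmem189 had 1993 to 2687 counts per library and a log2 fold change of −0.08 (adjusted p = 0.766, edgeR). The patterns nearest to Cebpb over the 6 libraries were those of C920009B18Rik, Atp8b4 and Gm2912, with differences of 0.19, 0.26 and 0.26 on the log2 scale against a size of 1.05 for Cebpb itself.

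Among 15 relatives, dimer partners and degraders of C/EBP proteins, of which 13 were tested, the Tribbles genes Trib1 and Trib2 moved in opposite directions. Trib1 and Trib2 encode pseudokinases known to hand C/EBPα to the ubiquitin ligase COP1 for degradation. Trib1 was at 4.01, 5.51 and 3.03 CPM in the KO libraries and at 13.5, 12.5 and 12.0 CPM in the WT libraries, a fall of 66.9% (log2 fold change −1.59 ± 0.26, adjusted p = 0.0295, edgeR). Trib2 was at 16.1, 18.6 and 45.0 CPM in the KO libraries and at 5.27, 3.01 and 4.09 CPM in the WT libraries, a rise of 6.43-fold (2.68 ± 0.45, adjusted p = 0.0312). Neither gene overlapped between the groups. They were the 1 call higher and 1 call lower of 13, where 1.64% and 1.92% of all tested genes were called. All KO libraries lay above all WT libraries for 2 of the 13 and below for 2, against 13.6% and 14.4% of tested genes. The counts of genes without overlap are near the shares over all genes. A single call in each direction among 13 genes is too few to set against its share. Neither says anything particular about the list. Per kilobase of exon, Trib2 stood at 4.86 to 21.4 times Trib1 in KO and at 0.349 to 0.563 times in WT. Of the 6 fits without 1 library, both genes passed in the one without KO2 and in no other, with adjusted p-values up to 0.116 for Trib1 and 0.127 for Trib2, and the rise of Trib2 was 4.18-fold without KO3.

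The other 11 tested relatives did not pass, and the list had a median log2 fold change of −0.06, beside 0.01 over all tested genes. Cop1 stood at 40.6 ± 3.71 CPM in KO and 34.2 ± 2.01 in WT (adjusted p = 0.260, edgeR), and Cebpz at 109 ± 4.31 against 124 ± 5.44 CPM (adjusted p = 0.238). Tef had 42.9 ± 3.64 and 57.0 ± 13.7 CPM, and Nfil3 2.84 ± 0.70 and 5.22 ± 3.46 CPM. Batf3 and Hlf were too low to test, with at most 21 counts in a library.

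Of 36 other transcription factors of blood fate choice, 31 were tested, 3 rose and 1 fell, and the list's median log2 fold change was 0.25. Among all 15232 tested genes 1.64% were called higher and 1.92% lower. The groups did not overlap for 12 of the 31 with KO above and for 4 with KO below, against 13.6% and 14.4% of tested genes. Egr1, an immediate early factor linked to monocytes, fell by 76.4%, from 123 ± 43.9 CPM in WT to 29.1 ± 1.26 CPM in KO (adjusted p = 0.0165, edgeR). Zeb2, a repressor active in monocytes and dendritic cells, rose 1.79-fold from 52.2 ± 0.88 to 93.7 ± 11.1 CPM (adjusted p = 0.0165). Tcf7 and Gata3, factors of T cells, rose from a very low base. Tcf7 had 3.80 ± 2.76 CPM in KO and 0.233 ± 0.142 in WT, with KO1 highest, and its fitted rise of 16.1-fold was 10.03-fold without KO1 and 24.4-fold without WT1. Gata3 had 98 counts over the KO libraries and 1 over the WT libraries, a ratio of 107 with a 95% exact (Clopper-Pearson) counting interval from 18.7 to 4253. Without 1 library, Zeb2 lost its call in the fit without WT3, Egr1 in those without KO1, KO3 or WT3, and Tcf7 and Gata3 in all but the one without KO2.

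Beside Tcf7 and Gata3, 16 T, NK and B cell markers were measured, of which 14 were tested. Of these 6 were called higher, against 1.64% of all tested genes. The list summed to 781 to 1071 CPM in KO and 706 to 849 CPM in WT, most of it from Nkg7 at 846 ± 170 and 784 ± 81.2 CPM. The list's median log2 fold change was 3.63. All KO libraries lay above all WT libraries for 11 of its 14 tested genes, against 13.6% of all tested genes. Igkc, an immunoglobulin light chain of B cells, had 45.6 ± 20.4 against 5.63 ± 5.90 CPM (adjusted p = 0.0804, edgeR). The part of such cells in the 2 rises was not tested. Other factors with small p did not pass. Irf8, a partner of PU.1 in monocytes and dendritic cells, stood at 5.36, 3.14 and 4.87 CPM in the KO libraries and at 1.25, 0.590 and 0.177 CPM in the WT libraries (adjusted p = 0.0746, edgeR). Egr2 had 0.430 ± 0.505 against 5.67 ± 3.75 CPM, and Myc, which C/EBPα is known to repress, 341 ± 41.7 against 445 ± 26.3 CPM (adjusted p = 0.0954). Irf4, Klf4, Maf, Ebf1 and Pax5 had too few counts to test, and Klf4 had 0 counts in each KO library and 29, 34 and 10 in the WT libraries.

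PU.1 and GATA factors oppose each other in blood progenitors, and the libraries held far more of the latter. Per kilobase of exon, Spi1 was at 0.108 to 0.221 of the Gata1 level in KO and at 0.195 to 0.402 in WT, and at 0.134 to 0.171 of the Gata2 level in KO and 0.205 to 0.290 in WT. The ratio to Gata1 overlapped between the groups, and the ratio to Gata2 did not. Gata1, Gata2 and Klf1 themselves did not pass the test, at adjusted p-values of 0.310, 0.770 and 0.345 (edgeR).

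Of 32 genes that C/EBP proteins and PU.1 are known to drive in myeloid cells, all were tested, 1 rose and 1 fell, and the median log2 fold change was −0.75. A single call in each direction is close to the 1.64% higher and 1.92% lower over all tested genes, so the count says nothing particular about the list. The gene that rose was Csf1r, which encodes the M-CSF receptor of monocytes and macrophages and is a classical PU.1 target. It stood at 26.7, 8.08 and 5.38 CPM in the KO libraries against 1.23, 0.948 and 0.840 CPM in the WT libraries (13.3-fold, adjusted p = 0.0336, edgeR), and at 6.67-fold without KO1. Fcnb, a granule lectin of immature neutrophils, had 3 counts over the KO libraries and 531 over the WT libraries, a WT to KO ratio of 163 with an exact counting interval from 55.4 to 792 (adjusted p = 0.0270, edgeR). KO1 held all 3 KO counts of Fcnb, and WT1 held 343 of the WT counts. The Csf1r call was lost without WT1, WT2 or WT3, and that of Fcnb without KO1, KO3, WT1 or WT3. Beside Csf1r, the summed level of 15 macrophage and dendritic cell markers, Csf1r itself among them, was 224 to 294 CPM in KO and 66.7 to 94.8 CPM in WT, and the part of such cells in its rise was not tested.

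The remaining 30 targets did not pass the test. Of the whole list, 10 of 32 had all KO libraries below all WT libraries, where 14.4% of tested genes did, Fcnb included, and 3 of 32 had all KO libraries above, where 13.6% did, Csf1r included. Ngp, a secondary granule protein that needs C/EBPε, had 5.96, 0.0871 and 0.897 CPM in the KO libraries and 290, 55.9 and 41.5 CPM in the WT libraries, with WT1 far above the rest (adjusted p = 0.0653, edgeR). Camp, another secondary granule gene, had 0.723 ± 1.13 CPM in KO and 19.6 ± 18.7 in WT (adjusted p = 0.112). Ncf1, which encodes a cytosolic subunit of the NADPH oxidase that makes superoxide, stood at 29.7 ± 12.0 against 116 ± 71.8 CPM (adjusted p = 0.0794, edgeR). Reads of Ncf1, Ngp and Camp rested most on WT1, the library with the highest neutrophil sum given above for Cebpe. Ngp and Camp are themselves among the markers in that sum, and its part in the values was not tested.

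**Figure D4:**
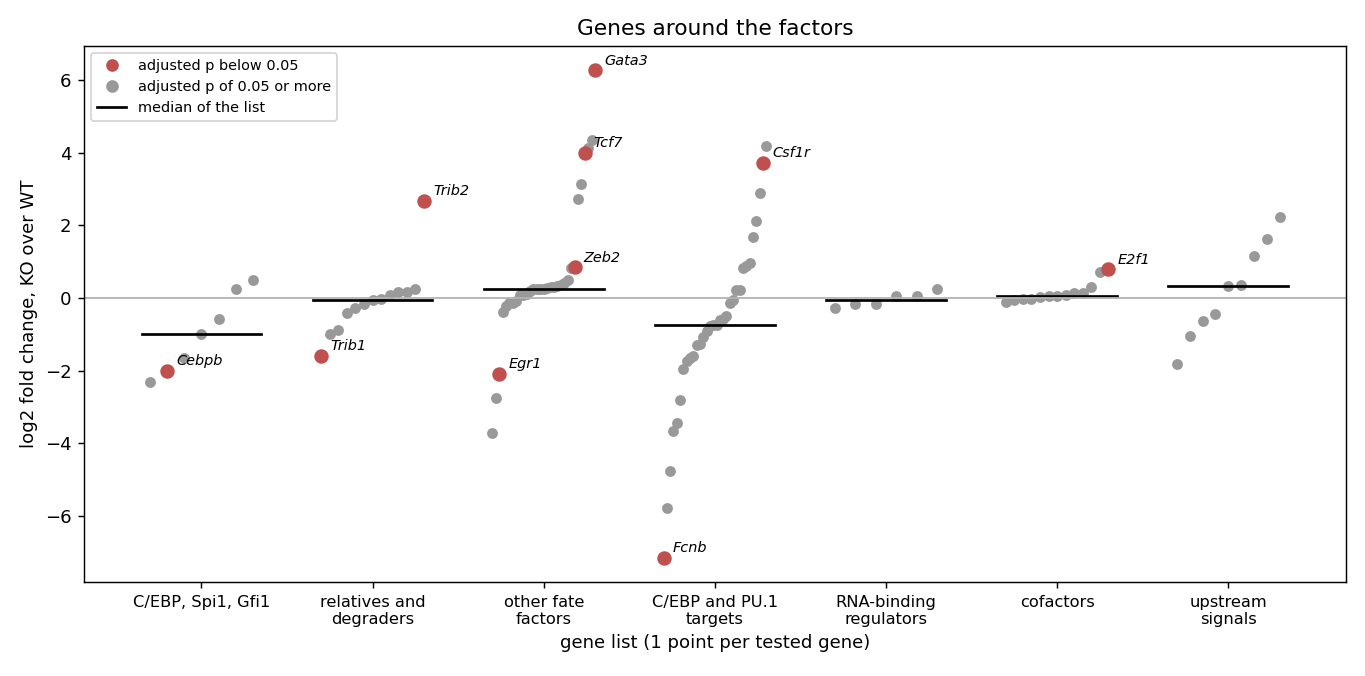
Log2 fold change, KO over WT (vertical axis), of each tested gene in 7 lists (horizontal axis); red points passed the test at an adjusted p below 0.05 and black lines are list medians. Trib1 at −1.59 and Trib2 at 2.68 lie on opposite sides of 0, and the targets run from Fcnb, the lowest, to positive values that include Csf1r.

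Genes of RNA-binding proteins that control translation, some of them known to act on Cebpa or Cebpb mRNA, gave no call. Of 6 tested, edgeR called 0, with 1 at an unadjusted p under 0.05 and 0 by DESeq2 or limma-voom. Among all tested genes edgeR called 1.64% higher and 1.92% lower. The median log2 fold change of the 6 was −0.06. Pcbp2, which encodes the hnRNP E2 protein that blocks Cebpa translation downstream of BCR-ABL, was at 68.8, 81.8 and 72.6 CPM in the KO libraries and at 81.8, 84.4 and 82.5 CPM in the WT libraries. The groups did not overlap, but KO2 and WT1 were almost equal (log2 fold change −0.16 ± 0.09, adjusted p = 0.378, edgeR). Celf1 had 284 ± 36.1 against 239 ± 3.90 CPM, Calr 933 ± 64.3 against 1041 ± 55.2 CPM, and Msi2 48.5 ± 6.85 against 58.3 ± 6.92 CPM.

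Of 13 cofactors that GFI1, C/EBP proteins or PU.1 bind, 1 rose and 0 fell in edgeR. Among all tested genes 1.64% were called higher and 1.92% lower. The number lower was also 0 at an unadjusted p under 0.05, by DESeq2 and by limma-voom. The rise was that of E2f1, the cell cycle factor that C/EBPα restrains, 1.73-fold from 48.7 ± 4.23 to 84.3 ± 15.2 CPM (adjusted p = 0.0425, edgeR), a call that of the fits without 1 library only the one without KO2 kept. With limma-voom the E2f1 adjusted p was 0.0517, and with the erythroid covariate, whose marker sums are given above for Spi1, the log2 fold change was 0.49 (adjusted p = 0.109, edgeR) in place of 0.79. Crebbp, an acetyltransferase, had 78.2 ± 4.43 against 63.5 ± 4.58 CPM, and Jun, a partner of PU.1, 14.6 ± 6.90 against 8.83 ± 0.97 CPM. Hdac3 and Ehmt2, repressive enzymes, had 210 ± 26.2 against 228 ± 9.40 CPM and 97.9 ± 11.5 against 89.9 ± 3.16 CPM. The median of the list was 0.06.

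Of 9 receptors and signal carriers upstream of C/EBP genes, edgeR called 0, where 1.64% of all tested genes were called higher and 1.92% lower. At an unadjusted p under 0.05 in edgeR there were 3 higher and 2 lower. DESeq2 called 2 higher and 1 lower, against 1075 and 920 of all 15232 tested genes, and limma-voom called 0. All KO libraries lay above all WT libraries for 3 of the 9 and below for 3, against 13.6% and 14.4% of tested genes. The list's median log2 fold change was 0.33. Il6st, the shared receptor chain of the interleukin 6 family, had 9.14, 14.96 and 5.67 CPM in the KO libraries and 3.41, 2.21 and 4.07 CPM in the WT libraries (adjusted p = 0.0826, edgeR). Socs3, which feeds back on that receptor, had 7.93 ± 2.38 against 3.56 ± 1.04 CPM. Csf2rb2, the mouse interleukin 3 receptor beta chain, had 2.07 ± 0.42 against 7.26 ± 4.69 CPM, and the Toll receptor adaptor Myd88 had 125 ± 22.3 against 169 ± 25.2 CPM.

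Markers of other blood cells differed between the libraries beside Cebpb. Of the 15 macrophage and dendritic cell markers 6 were called higher, against 1.64% of all tested genes, and 13 of 15 had all KO libraries above all WT libraries, against 13.6%. Their median log2 fold change was 3.02, and Cx3cr1 and H2-Ab1 were the most abundant. The neutrophil markers summed to 14.8 to 216 CPM in KO and 105 to 744 CPM in WT. Of the 8 tested, edgeR called 0 and DESeq2 called 2 lower. That list was mixed, with 3 genes higher in KO, 5 lower and a median log2 fold change of −0.94. Without WT1, the library with the highest neutrophil sum, the log2 fold change of Cebpb was −1.91 (adjusted p = 0.037, edgeR). Mast cell, basophil and eosinophil markers summed to 49.3 to 105 CPM in KO and 100 to 217 CPM in WT. Hdc was called lower of 8 tested, where 1.92% of all tested genes were, and Tpsb2 had no count in any library. The list was mixed, with 4 tested genes higher in KO, 4 lower and a median log2 fold change of 0.33. Megakaryocyte markers summed to 651 to 979 CPM in KO and 968 to 1667 CPM in WT. Pf4 was called lower at 187 ± 77.9 against 588 ± 124 CPM (adjusted p = 0.0361, edgeR), and 1 of 7 was called higher. Among all tested genes 1.92% were called lower and 1.64% higher. The megakaryocyte list was mixed too, with 3 genes higher in KO, 4 lower and a median log2 fold change of −0.19. With the erythroid covariate Cebpb had a log2 fold change of −2.20 (adjusted p = 0.0368, edgeR). The part of the neutrophil, macrophage, lymphoid, erythroid, mast cell and megakaryocyte transcripts in the Cebpb difference was not tested. The fit without WT1 and the fit with the erythroid covariate are not tests of that part.

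The genes nearest in pattern to the scarce members were myeloid ones for Cebpe. Ltb4r1, Ly6c2 and Ccr2, a leukotriene receptor, a surface protein and a chemokine receptor of neutrophils and monocytes, differed from Cebpe by 0.49, 0.63 and 0.72 against a pattern size of 1.59. Prtn3, which encodes the azurophil granule protease proteinase 3, was the nearest to Cebpa at 0.47 against 1.26, followed by Magee2 and Ppbp at 0.60 and 0.64. For Gfi1 the nearest were Gm15261, P4ha1 and B230217C12Rik at 0.22, 0.28 and 0.28 against 0.65. These distances are descriptions over 6 libraries among 9846 genes whose mean reached 5 CPM, and Cebpa, Cebpe and Gfi1 rest on few counts.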

How the data were processed

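The deposited values are counts of reads per gene, 1 column per library, with no column left unused. The tools named per the submitters' processing notes are Subread 2.0.1 with featureCounts, the aligner STAR 2.7.9a and the read trimmer fastp 0.23.1. Build, annotation, parameters and handling of multi-mapping reads: not given in the sources used here. Per the labels' protocols, poly(A) RNA was pre-amplified from small inputs with the SMARTer chemistry, tagmented with Nextera XT and read from a single end, without molecular identifiers or strand, so intervals on counts cover counting error only.

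Genes were filtered with filterByExpr (minimum count 10, minimum total count 15), scaled by TMM and compared in edgeR 4.0.16 (R 4.3.3) by the robust quasi-likelihood F test over all 15232 genes, without covariates, with Benjamini-Hochberg adjustment at 0.05. Standard errors are the log2 fold change divided by the square root of F. DESeq2 1.42.0 and limma 3.58.1 were alternatives, as were other scalings and filters, the replicate number as a block, an erythroid covariate and each library left out. On simulated counts edgeR recovered 7.46%, 49.3% and 66.7% of genes changed 1.5-fold, 2-fold and 4-fold among 14768 genes, with 4 false calls.

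The 7 factors were chosen by symbol, and the members and lists were chosen with earlier results of these data known. Named beside them are the 3 genes nearest in pattern to each factor whose highest library was at least 2 times its lowest (log2 of CPM + 0.05), every list gene past the threshold and up to 4 more by smallest p whose mean reached 1 CPM, and the most abundant markers; Klf4, Gata1, Gata2, Klf1, Gfi1b and the untested genes were named after their values were seen. Some genes that this rule names are not reported here. Exon lengths came from GENCODE M21, which holds 97.3% of tested genes by symbol. Promoter sequences were matched by symbol in the RefSeq table for Cebpa, Cebpb, Cebpg and Gfi1.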

Additional observations from a re-analysis of the deposited data

How the results depend on the processing

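Depth limits Cebpa, Cebpe and Gfi1, which had 160 counts or fewer per group, and 1 library could turn Cebpd. The sign of the other 6 factors was the same under each alternative run, and for Cebpa, Cebpe and Gfi1 the filter of at least 1 CPM in 3 libraries gave no value. Same-numbered libraries did not deviate together (correlations of 0.0622, −0.129 and −0.0615), beside −0.121 to 0.169 for the other pairs. These correlations gave no sign of a pairing by number, but with 3 libraries per group they cannot exclude it. With the replicate number as a block, Cebpb had a log2 fold change of −2.03 with an adjusted p of 0.0611, calls over all genes were 8 higher and 20 lower, and counts of relatives higher and lower, fate factors higher and lower, targets higher and cofactors higher were 0. With the erythroid covariate Cebpd was −0.11, all calls were 143 higher and 97 lower, and counts were 0 for relatives in both directions, fate factors lower, targets in both directions and cofactors higher. DESeq2 called 1075 genes higher and 920 lower, with fate factors 7 higher and 3 lower, targets 6 lower, and upstream signals 2 higher and 1 lower. Limma-voom gave 0 for relatives higher, targets in both directions and cofactors higher, and without a filter 2 fate factors were lower. With the longest transcript as length the WT means of Cebpg and Spi1 were 11.4 and 38.0 CPM per kilobase. The causes were not tested, except that the block and the covariate leave fewer residual degrees of freedom.

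Over the fits without 1 library, log2 fold changes ran from −2.28 to −1.06 for Cebpa, −2.15 to −1.82 for Cebpb, −0.80 to 0.89 for Cebpd, −4.39 to −1.33 for Cebpe, 0.21 to 0.27 for Cebpg, −0.77 to −0.41 for Spi1 and −1.33 to −0.72 for Gfi1. Calls over all genes ran from 13 (without WT3) to 371 higher and from 29 (without WT3) to 247 lower, against 250 and 293. List calls ran from 0 to 1 for relatives in each direction, fate factors lower, targets higher and cofactors higher, from 0 to 3 for fate factors higher and from 0 to 2 for targets lower.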
